A study of Homo sapiens with 12 samples.

Results

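The ERK feedback and output transcripts studied here are the mRNAs of 3 dual-specificity phosphatases (DUSP4, DUSP5, DUSP6), 3 Sprouty proteins (SPRY1, SPRY2, SPRY4), 2 Sprouty-related proteins (SPRED1, SPRED2) and 2 ETS transcription factors (ETV4, ETV5). These 10 genes were taken by symbol from the 26334 gene symbols of the count table, by their known role. Earlier results of these data were known at the time of this choice. The samples were cultures of A673, an established Ewing sarcoma cell line, in a derivative labelled shA673-1c that was grown with blasticidin and zeocin. What the short hairpin construct implied by "sh" targets is not given by the labels, the titles carry "CTL", and every library shares this background. Cells received 5 µM actinomycin D, an inhibitor of RNA synthesis, and poly(A) RNA was sequenced with a stranded kit after 0, 1, 2 and 4 h. There were 3 biological replicates per time point and 12 libraries in all, with 9147018 to 11194705 counted reads each. No library without actinomycin D was followed over time here, so time in the drug and time in culture cannot be told apart.

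Growth factor receptors pass their signal through RAS, RAF and MEK to the kinase ERK, and ERK in turn raises the transcription of its own inhibitors. The DUSP phosphatases remove the activating phosphates from ERK and related kinases, while Sprouty and SPRED proteins act upstream at the level of RAS and RAF. ETV4 and ETV5, of the PEA3 subfamily, carry part of the transcriptional output of the pathway. The same families are widely read as a transcript signature of ERK activity, and their mRNAs are known as short-lived. A673 is known to carry an activating BRAF mutation, which acts within this pathway. When new transcription is blocked, the rate at which each mRNA is lost becomes visible.

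The labelled cell type was compared with its markers. The 7 Ewing sarcoma markers summed to 2824 to 3668 counts per library at 0 h and 1803 to 2676 at 4 h. Among them, however, CD99, a membrane glycoprotein used in diagnosis, was at 0 in all 12 libraries, and CCK was at 3 to 9 counts at 0 h. How reads were counted is not given in the sources used here. Whether the 0 of CD99 reflects absent mRNA or the counting was not tested. The 6 markers of leukocytes, epithelium and endothelium summed to 3 to 14 counts per library over the whole course. The counts of replicates from 1 time point varied beyond sampling noise (chi-square per degree of freedom 3.07 to 8.15 over 12 pairs), so each was counted as a sample.

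Before actinomycin D, the transcripts differed widely in level. Levels between genes are given as CPM (a gene's share of the library's counts, scaled between libraries by TMM factors) per kilobase of the canonical transcript. DUSP6, the cytoplasmic ERK-selective phosphatase, stood highest at 40.1 ± 2.45 CPM per kb (SD, n = 3), followed by ETV5 at 28.5 ± 1.28. SPRED2 (16.4 ± 0.425) and DUSP5, a nuclear ERK-selective phosphatase (15.5 ± 3.60), came next, and their libraries overlapped. SPRY2 (7.29 ± 1.38), ETV4 (6.81 ± 0.672), SPRY4 (6.47 ± 1.02), DUSP4 (5.93 ± 1.65) and SPRED1 (5.87 ± 0.190) formed a group in which each gene overlapped its neighbor in this order. SPRY1 was far below them at 0.369 ± 0.192 CPM per kb. With a mean of 4.92 counts per library it did not pass the filter of a mean of at least 10 counts, which left 9 of the 10 genes among the 12032 tested.

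AU-rich pentamers in the 3′ untranslated region (UTR) are a known feature of many short-lived mRNAs, and the genes differed in how many they hold. The letters ATTTA were counted on the sense strand of the canonical transcript (GENCODE version 44, GRCh38), overlapping matches included. DUSP5 and ETV4 held none, DUSP6 held 1 in 2019 bases and SPRY2 2 in 782. SPRY1 and ETV5 held 4 each, SPRED2 5, DUSP4 6, SPRY4 8, and SPRED1 24 in 5585 bases. At least 1 ATTTA was present in 75.07% of the 10818 tested genes with an annotated 3′ UTR, whose median density was 1.78 per kb. The longer motif TTATTTATT, which contains the pentamer, occurred once among the 10 genes, in DUSP4, against 10.07% of all. The Pumilio-type motif TGTANATA was found in DUSP4, DUSP6, SPRY2, SPRY4, SPRED1, SPRED2, ETV4 and ETV5, against 31.69% of all. Taking the longest annotated 3′ UTR of each gene left the pentamer counts of the 10 genes as they were. The single site of DUSP6, the most sparsely equipped of the genes with any, is given here with 1 site each of SPRY2 and SPRY4, whose time courses differed, and with 2 neighboring sites of SPRED1. Capitals mark ATTTA, each window is 30 bases of 3′ UTR in the direction of the transcript, and positions are those of GRCh38.
DUSP6, chr12:89348102-89348131, minus strand: gtttagagctggaATTTAttataagaatgt
SPRY2, chr13:80336122-80336151, minus strand: tagtgtaaagaatATTTAtttgaagtttta
SPRY4, chr5:142313529-142313558, minus strand: agccacaggatggATTTAggagccactgct
SPRED1, chr15:38353345-38353374, plus strand: ttaagaaagcATTTAtATTTAtatgacagc

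Over 4 h of actinomycin D, 8 of the 9 tested genes fell and ETV4 alone was higher. In edgeR's quasi-likelihood fit with hours as a number, 8 fell with an adjusted p below 0.05, against 32.1% of all tested genes, and 1 rose, against 30.7%. The same genes were called at 4 h against 0 h, where 31.6% of all genes were lower and 28.7% higher. The median slope of the 9 was -0.53 log2 units per hour, beside 0.0093 for all tested genes. TMM scaling takes most genes as unchanged, so a median near 0 for all genes follows from the scaling. Scaled to the counts of GAPDH and ACTB instead, the medians were -0.67 for the 9 and -0.13 for all. These are bulk libraries scaled to each other, so the values are TMM-scaled shares of the counted mRNA. Neither the number of cells nor the total RNA per cell can be read from them. The plot of levels by library holds all 10 genes.

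**Figure D1:**
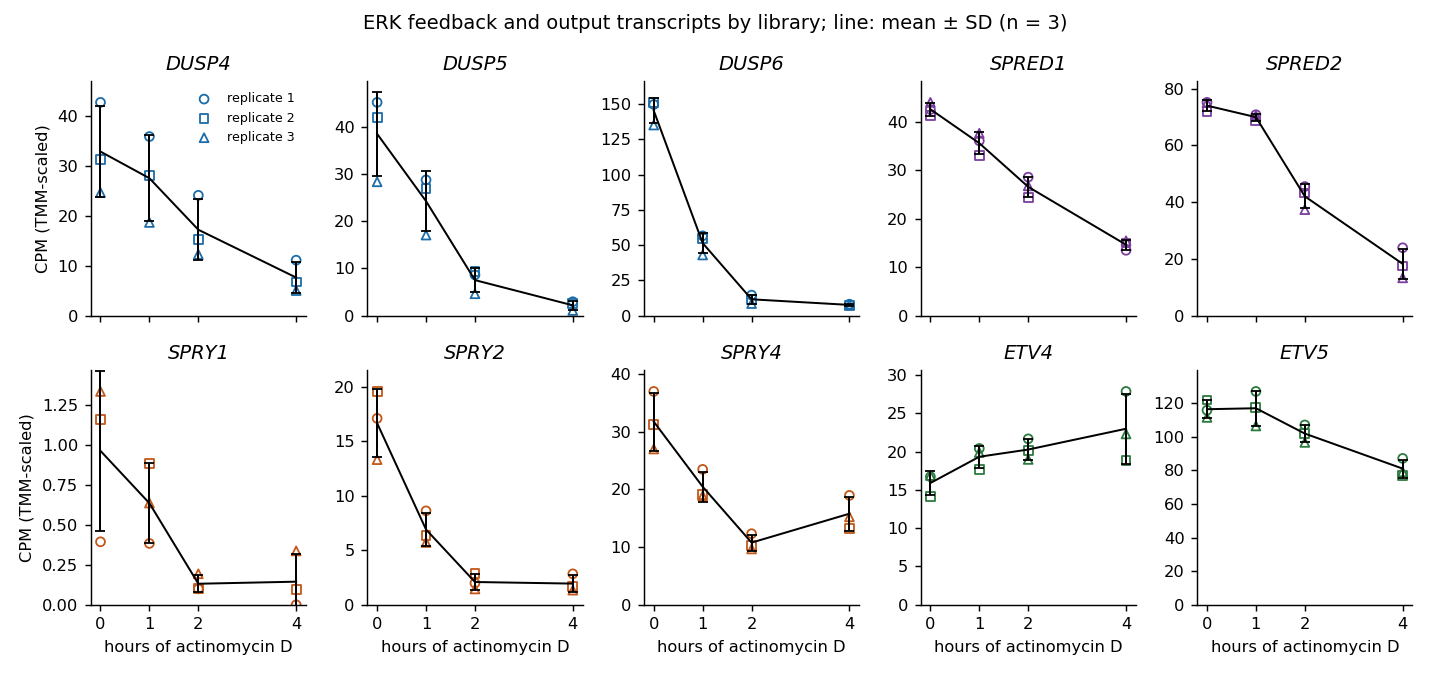
Level of each gene (CPM, TMM-scaled, linear axis from 0) against hours of actinomycin D, with 1 symbol per replicate and the mean ± SD of 3 libraries as a black line. DUSP6 drops from between 135 and 151 CPM to under 15 by 2 h, SPRY4 stands higher at 4 h than at 2 h, and ETV4 does not fall.

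The phosphatases DUSP5 and DUSP6 were lost fastest. DUSP6 stood at 149.7, 151 and 135 CPM in replicates 1, 2 and 3 at 0 h, at 56.6, 54.7 and 43.0 after 1 h, at 14.6, 11.6 and 8.61 after 2 h, and at 8.18, 6.97 and 7.84 after 4 h. The libraries of no 2 time points overlapped, and 5.29% ± 0.616 (SD, n = 3) of the starting level was left at 4 h. The fitted change from 0 to 4 h was 19.0-fold lower (log2 change -4.25, SE 0.156, adjusted p = 1.34e-10). DUSP6 had the 17th steepest slope of 12032 genes, at -1.19 log2 units per hour (SE 0.103).

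DUSP5 followed a similar total loss by another route. It stood at 45.1, 42.0 and 28.3 CPM at 0 h, at 28.7, 26.9 and 17.1 after 1 h, at 8.64, 9.32 and 4.65 after 2 h, and at 2.96, 2.52 and 1.12 after 4 h. The libraries of 0 h and 1 h overlapped, those of later time points did not, and replicate 3 was the lowest at each time. It was 17.4-fold lower at 4 h than at 0 h (log2 change -4.12, SE 0.334, adjusted p = 1.35e-07). DUSP4, a nuclear phosphatase of ERK and JNK, fell more slowly. Its levels were 42.8, 31.3 and 24.7 CPM at 0 h, 35.9, 28.1 and 18.7 after 1 h, 24.1, 15.3 and 12.3 after 2 h, and 11.1, 6.78 and 5.04 after 4 h. Replicate 1 was the highest and replicate 3 the lowest at every time, neighboring times overlapped up to 2 h, and the level at 4 h was 4.32-fold lower than at 0 h (log2 change -2.11, SE 0.329, adjusted p = 7.34e-05).

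Of the Sprouty transcripts, whose products restrain signaling from receptor tyrosine kinases to RAS, SPRY2 and SPRY4 were lower at 4 h than at 0 h, and their ratio changed with time. SPRY2 stood at 17.1, 19.6 and 13.3 CPM at 0 h, at 8.62, 6.38 and 5.72 after 1 h, at 1.99, 2.84 and 1.45 after 2 h, and at 2.84, 1.65 and 1.34 after 4 h. It was 8.62-fold lower at 4 h than at 0 h (log2 change -3.11, SE 0.273, adjusted p = 2.88e-07), with 2 h and 4 h overlapping. SPRY4 stood at 37.0, 31.3 and 27.0 CPM at 0 h, at 23.5, 19.1 and 18.9 after 1 h, at 12.3, 10.3 and 9.68 after 2 h, and at 19.0, 13.2 and 15.2 after 4 h. Its level at 4 h was above that at 2 h in 3 of 3 replicates, and the libraries of these times did not overlap. Against 0 h, the level at 4 h was 2.02-fold lower (log2 change -1.01, SE 0.153, adjusted p = 5.68e-05), and its slope over all times had an adjusted p of 0.00517 (0.0502 without replicate 2). In an edgeR fit blocked on replicate number, with all replicates, the slope of SPRY4 had an adjusted p of 0.00210. For SPRY1 only counts can be given, which summed over 3 libraries to 31, 20, 4 and 4 at 0, 1, 2 and 4 h. Replicate 1 had 0 SPRY1 counts at 4 h, which allows a level of up to 0.328 CPM, by counting error only. When the filter was dropped, SPRY1 was also lower with time (log2 slope -0.83, SE 0.189, adjusted p = 0.00102).

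Both SPRED transcripts, whose products bring the RAS inhibitor neurofibromin to the membrane, fell over the 4 h. SPRED1 stood at 42.6, 41.3 and 44.1 CPM at 0 h, at 36.1, 33.1 and 37.7 after 1 h, at 28.6, 24.4 and 26.8 after 2 h, and at 13.5, 15.0 and 15.5 after 4 h. SPRED2 stood at 75.1, 71.8 and 75.1 CPM at 0 h, at 70.8, 68.5 and 70.4 after 1 h, at 45.5, 43.2 and 37.4 after 2 h, and at 23.9, 17.5 and 13.3 after 4 h. Neither gene had overlapping libraries at any 2 time points. At 4 h against 0 h, SPRED1 was 2.90-fold lower (log2 change -1.54, SE 0.0907, adjusted p = 6.46e-09) and SPRED2 4.06-fold lower (log2 change -2.02, SE 0.140, adjusted p = 2.76e-08).

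The ETS factors were the most persistent. ETV5 stood at 116, 122 and 111 CPM at 0 h, at 127, 117 and 106 after 1 h, at 107, 102 and 96.6 after 2 h, and at 87.1, 76.9 and 79.1 after 4 h. Its libraries at 4 h lay below all earlier ones, at 1.44-fold lower than 0 h (log2 change -0.52, SE 0.0754, adjusted p = 3.60e-05). ETV4 stood at 16.7, 14.1 and 16.9 CPM at 0 h, at 20.4, 17.7 and 19.9 after 1 h, at 21.7, 20.2 and 19.0 after 2 h, and at 27.8, 18.8 and 22.3 after 4 h. The libraries of 0 h lay below all later ones, and the level at 4 h was 1.44-fold higher (log2 change 0.52, SE 0.136, adjusted p = 0.00408). The rise in ETV4 depended on the scaling. GAPDH and ACTB, taken as references, rose themselves by 0.15 and 0.12 log2 units per hour, and scaled to their summed counts ETV4 had a log2 slope of -0.02 (adjusted p = 0.617) and a log2 change of -0.03 at 4 h (adjusted p = 0.857). That scaling moved the median slope of all tested genes to -0.13, and the genes called lower and higher from 3859 and 3694 to 7729 and 112. With library totals alone, they were 4704 and 2242, and ETV4 had a slope of 0.08 (adjusted p = 0.0539). Without replicate 1 the slope of ETV4 was 0.09 (adjusted p = 0.0620). Those fits were not blocked on replicate number. In edgeR with that block, TMM scaling and all replicates, its slope was 0.12 (adjusted p = 0.000630).

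The slopes can be read as apparent half-lives, the time in which the TMM-scaled level halved, with no new synthesis assumed. They ran from 0.837 h for DUSP6 (95% confidence interval 0.708 to 1.02) and 0.924 h for DUSP5 (0.790 to 1.11), through 1.11 h for SPRY2 (0.882 to 1.50), to 1.86 h for DUSP4 (1.43 to 2.66) and 1.89 h for SPRED2 (1.60 to 2.32). SPRED1 (2.57 h, 2.27 to 2.95) and SPRY4 (3.79 h, 2.38 to 9.31) were slower, and ETV5 was the slowest at 7.13 h (5.48 to 10.2). The intervals of neighbors in this order overlapped throughout in this fit, which ignored the replicate numbers. With the replicate block, those of SPRY2 (0.855 to 1.34) and DUSP4 (1.65 to 2.13) did not overlap. Those of SPRED2 (up to 2.312) and SPRED1 (from 2.316) were also just apart. A single slope was a poor summary for some of them. Over 0 to 2 h alone, the half-life of DUSP6 was 0.567 h (0.510 to 0.638), that of SPRY2 0.695 h (0.588 to 0.850) and that of SPRY4 1.32 h (1.08 to 1.69). Scaled to GAPDH and ACTB, all 8 half-lives were shorter, with 0.768 h for DUSP6 and 3.59 h for ETV5. With library totals alone they were 0.815 h for DUSP6 and 5.57 h for ETV5.

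Departure from a straight line on the log scale was tested directly. Quadratic and cubic terms improved the fit of 3 genes, DUSP6 (adjusted p = 0.000368), SPRY4 (0.00446) and SPRY2 (0.0317), against 2.70% of all tested genes. In a fit blocked on replicate number, 6 genes departed from a line, with DUSP4, DUSP5 and SPRED2 added, against 17.2% of all. Without replicate 1, 2 or 3, the number was 1, 0 and 2. SPRED2 also departed in DESeq2 (adjusted p = 0.0301) and without a count filter (0.0405). SPRED1, ETV4 and ETV5 did not pass in the fit with or without the block.

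**Figure D2:**
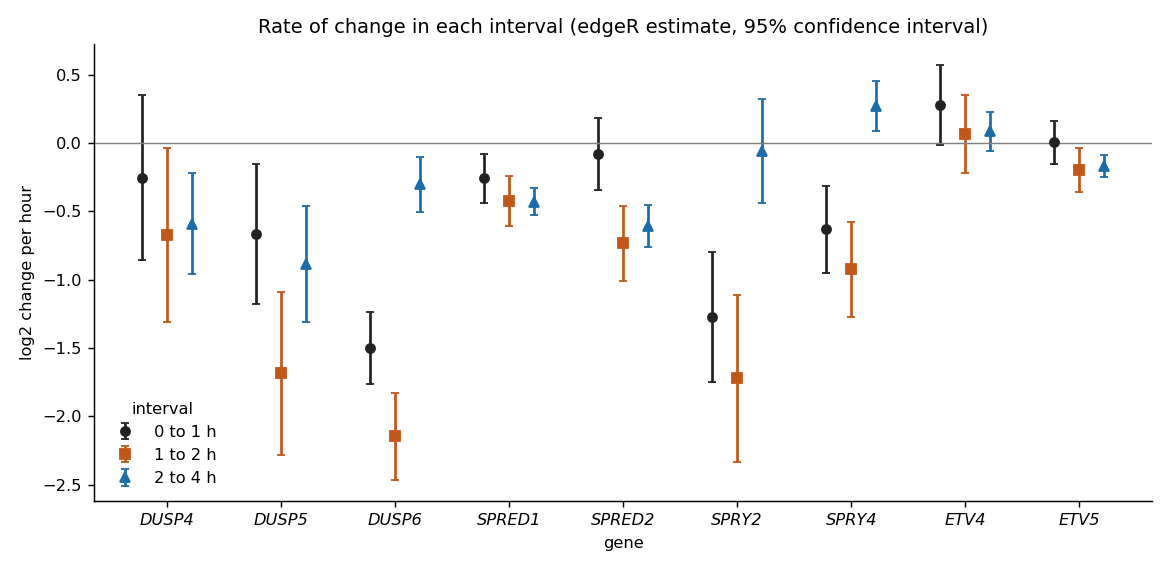
Fitted log2 change per hour for each tested gene (horizontal axis) in the first hour, the second hour and the last 2 h, with 95% confidence intervals from edgeR and a grey line at 0. All genes shown except SPRED1 and ETV4 have their most negative rate in the second hour, and SPRY4 is above 0 in the last interval.

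Within the first hour, DUSP6 fell by 1.50 on the log2 scale (SE 0.124, adjusted p = 4.18e-05), SPRY2 by 1.27 (SE 0.221, adjusted p = 0.00711) and SPRY4 by 0.63 (SE 0.147, adjusted p = 0.0365), and these 3 were the genes called lower, against 2.24% of all. DUSP5 had a change of -0.67 (adjusted p = 0.189) and SPRED1 one of -0.26 (adjusted p = 0.131). With the replicate block, 6 were called lower, against 10.5% of all, with DUSP4 (-0.26, adjusted p = 0.0161), DUSP5 (-0.67, adjusted p = 1.11e-07) and SPRED1 (-0.26, adjusted p = 0.00568) added. ETV4 was then called higher (0.28, adjusted p = 0.0443), against 6.18% of all. SPRED2 and ETV5 passed in neither fit, with changes of -0.08 and 0.01. Without replicate 1, 1 gene was called lower in the first hour, and without replicate 2 none was in edgeR, DUSP6 having an adjusted p of 0.0726. SPRY4 did not pass with any 1 replicate left out (adjusted p = 0.131, 0.419 and 0.0799 without replicates 1, 2 and 3). Those fits had no block, and in edgeR with the block and all replicates its change was -0.63 (adjusted p = 8.83e-07).

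In the second hour, 6 genes were lower, against 12.5% of all. DUSP6 fell by 2.15 (SE 0.149, adjusted p = 1.47e-06), SPRY2 by 1.72 (SE 0.285), DUSP5 by 1.69 (SE 0.278), SPRY4 by 0.92 (SE 0.162), SPRED2 by 0.73 (SE 0.127) and SPRED1 by 0.42 (SE 0.0852), with adjusted p-values up to 0.00361. The block added DUSP4 and ETV5, giving 8 against 20.7% of all. Without replicate 2, SPRED1 (adjusted p = 0.0606) and SPRED2 (adjusted p = 0.0698) did not pass, and 4 genes were lower. The second hour was then compared with the first, a contrast chosen after the values were seen. No gene of the 9 lost mRNA faster in the second hour after adjustment in edgeR or in DESeq2, against 0.175% of all, although DUSP5, DUSP6 and SPRED2 had an unadjusted p under 0.05. With the block these 3 were called, against 6.80% of all. The differences were -1.02 for DUSP5 (adjusted p = 7.42e-05), -0.64 for DUSP6 (adjusted p = 0.00175) and -0.66 for SPRED2 (adjusted p = 0.000818), in log2 units per hour.

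Between 2 and 4 h, 6 genes were lower, against 18.3% of all. DUSP5 fell by 1.77 (SE 0.394, adjusted p = 0.00406), SPRED2 by 1.21 (SE 0.143), DUSP4 by 1.18 (SE 0.345), SPRED1 by 0.86 (SE 0.0936), DUSP6 by 0.60 (SE 0.187, adjusted p = 0.0253) and ETV5 by 0.33 (SE 0.0757) over the 2 h. SPRY2 had a change of -0.12 (SE 0.355, adjusted p = 0.837). SPRY4 was the 1 gene called higher, by 0.54 (SE 0.168, adjusted p = 0.0253), against 12% of all. Its change was 0.46 with library totals (adjusted p = 0.0524) and 0.24 scaled to GAPDH and ACTB (adjusted p = 0.186). Without replicate 2, SPRED1 and SPRED2 were the 2 genes still called lower, and SPRY4 had a change of 0.64 (adjusted p = 0.0956). Without replicate 1, DUSP6 did not pass (adjusted p = 0.173), and without replicate 3 the change of SPRY4 was 0.47 (adjusted p = 0.112). In edgeR with the replicate block and all replicates, the change of SPRY4 was 0.54 (adjusted p = 9.76e-05). The change per hour in this interval was compared with that of the second hour, also after the values were seen. It was less negative for DUSP6 by 1.84 log2 units per hour (SE 0.215, adjusted p = 0.000743) and for SPRY4 by 1.20 (SE 0.221, adjusted p = 0.0127), against 1.48% of all. SPRY2 had a difference of 1.66 (adjusted p = 0.0647), and passed with library totals (0.0496), GAPDH and ACTB scaling (0.0452), DESeq2 (0.00966) and no count filter (0.0203). With the block 4 genes were called, DUSP5 and SPRY2 included, against 5.52% of all. Without replicate 1, 2 or 3, 1, 0 and 1 gene were called. After 4 h, DUSP6 was still at 69, 72 and 70 counts, while DUSP5 was at 25, 26 and 10 and SPRY2 at 24, 17 and 12, so the late values of the last 2 rest on few reads.

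Ratios of family members within a library do not depend on the scaling between libraries. Of the 8 pairs within a family, 6 had both genes past the count filter, and the log2 ratio changed with time in 5 of the 6 (exact permutation test of the slope over 369600 arrangements of the time labels, two-sided, Benjamini-Hochberg over the 6 pairs). These arrangements exchange labels freely and ignore the replicate numbers. Permuting within replicate numbers (13824 arrangements, the replicate block) called the same 5 pairs, with adjusted exact permutation p-values from 0.000145 to 0.0243. DUSP4 gained on DUSP5 by 0.53 log2 units per hour (SE 0.0665, exact permutation p = 5.41e-06, adjusted p = 1.08e-05), going from 0.745 to 0.948 times its counts at 0 h to 2.66 to 4.33 times at 4 h. It also gained on DUSP6, by 0.51 (SE 0.159, exact permutation p = 0.0109, adjusted p = 0.0163), but only up to 2 h. The mean log2 ratio of DUSP4 to DUSP6 was -2.18, -0.94, 0.54 and -0.08 at 0, 1, 2 and 4 h. SPRY2 lost ground to SPRY4 by 0.53 per hour (slope -0.53, SE 0.0668, exact permutation p = 2.71e-06, the smallest this test can give), from 0.463 to 0.627 times its counts at 0 h to 0.0916 to 0.153 times at 4 h. ETV4 gained on ETV5 by 0.26 (SE 0.0286, exact permutation p = 5.41e-06, adjusted p = 1.08e-05), from 0.116 to 0.152 times its counts to 0.245 to 0.320 times. SPRED1 gained on SPRED2 by 0.15 (SE 0.0549, exact permutation p = 0.0145, adjusted p = 0.0174), though the libraries of 4 h spread from 0.565 to 1.16 times and reached those of 0 h. The mean log2 ratio of SPRED1 to SPRED2 first went down, being -0.79, -0.97, -0.66 and -0.28 at 0, 1, 2 and 4 h.

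DUSP5 and DUSP6 had no difference in slope over the whole course (-0.02, SE 0.138, exact permutation p = 0.894), yet their ratio was not flat. Its log2 mean rose from -1.94 at 0 h to -1.11 and -0.65 at 1 and 2 h, and stood at -1.88 at 4 h. Over 0 to 2 h the slope of the ratio was 0.64 (adjusted exact permutation p = 0.00179). The ratio of DUSP4 to DUSP6 did not pass without replicate 1 (adjusted exact permutation p = 0.0714) or 2 (0.0952). That of SPRED1 to SPRED2 did not pass without replicate 2 (adjusted exact permutation p = 0.117) or 3 (0.145), or over 0 to 2 h (0.352), and 3 pairs were left without replicate 2.

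**Figure D3:**
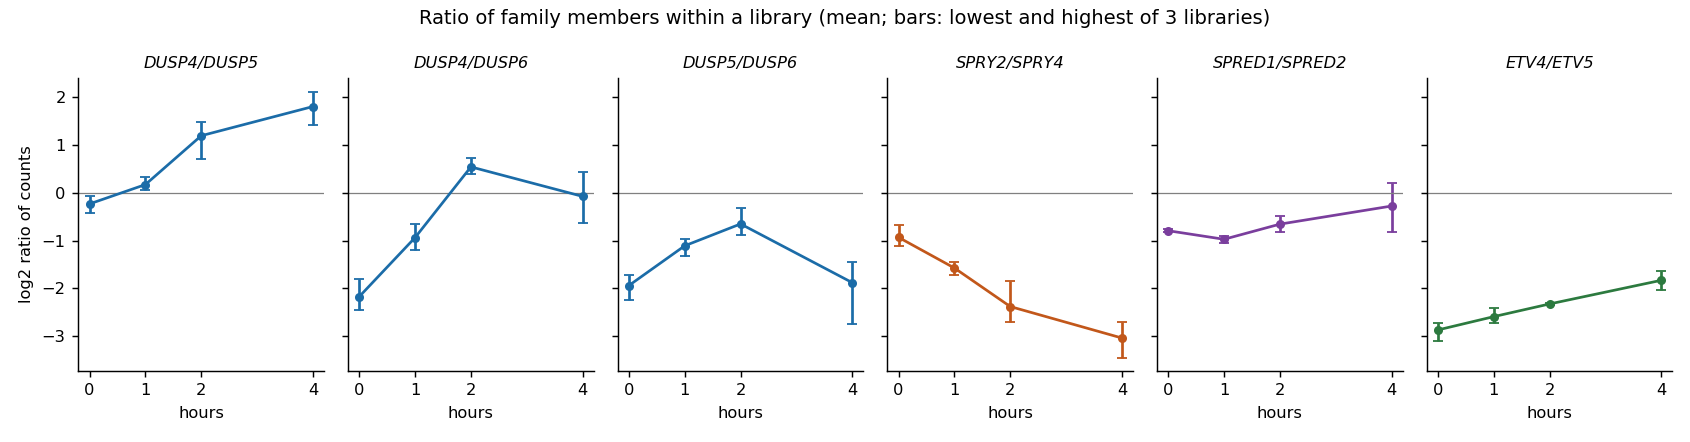
Log2 ratio of the counts of 2 genes of a family within a library against hours of actinomycin D, 1 panel per pair, with the mean of 3 libraries and bars from the lowest to the highest library. SPRY2/SPRY4 goes down throughout, DUSP4/DUSP5 and ETV4/ETV5 go up throughout, and DUSP5/DUSP6 goes up to 2 h and is down again at 4 h. DUSP4/DUSP6 also goes up to 2 h and is lower at 4 h than at 2 h, and SPRED1/SPRED2 is lowest at 1 h.

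Other transcripts of the same families, other targets and cascade genes were set beside these genes. Those lists were also written with earlier results of these data known. Of 10 relatives, 7 were tested, 6 fell and none rose in edgeR, against 32.1% and 30.7% of all, with a median slope of -0.44. DUSP1, the immediate early nuclear MAP kinase phosphatase, had a slope of -1.46 (SE 0.137), from 12.3 ± 1.92 CPM at 0 h to 0.514 ± 0.333 at 4 h (SD, n = 3). DUSP2, another nuclear phosphatase, had a slope of -1.22 (SE 0.0988), and DUSP16, which acts on JNK and p38, one of -0.60 (SE 0.0421). ETV1, the third PEA3 factor, had a slope of -0.01 (SE 0.0161, adjusted p = 0.492). With library totals alone, and also scaled to GAPDH and ACTB, all 7 tested relatives fell, ETV1 included. Of all 12032 tested genes, 4704 and 7729 were lower under these scalings. DUSP9, DUSP10 and SPRY3 had means of at most 3.42 counts per library and were not tested.

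Of 10 other genes known as ERK targets, 8 fell and 1 rose, against 32.1% and 30.7% of all, with a median slope of -0.57. The steepest were IER3, an immediate early response gene (-1.17, SE 0.0997), MYC, a growth-promoting transcription factor (-1.12, SE 0.101), and PHLDA1 (-0.63, SE 0.0677). CCND1, which encodes cyclin D1, had a slope of 0.06 (SE 0.0137, adjusted p = 0.000722), and EPHA2 was the 1 gene that passed in neither direction. These calls depended on the scaling. With library totals alone, 8 of these targets fell and 0 rose, where 4704 of all 12032 tested genes were lower and 2242 higher. Scaled to GAPDH and ACTB, all 10 targets fell, where 64.2% of all were lower. Of 21 genes of the cascade, from adaptors to ERK and RSK kinases, 7 fell, 9 rose and 5 did not pass, with a median slope of 0.02. Among all tested genes, 32.1% were lower and 30.7% higher. The steepest falls among them were those of FRS2, an adaptor of FGF receptors (-0.54, SE 0.0302), SOS1, an exchange factor of RAS (-0.24), and GAB1, a docking protein (-0.23). The steepest rises were those of MAPK3, which encodes ERK1 (0.19, SE 0.0303), RPS6KA1 (0.13) and MAP2K2, which encodes MEK2 (0.12). Scaled to GAPDH and ACTB, 15 of the 21 cascade genes fell and none rose in edgeR, and 8 of the 9 feedback and output genes fell, where 64.2% of all tested genes were lower and 0.931% higher.

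**Figure D4:**
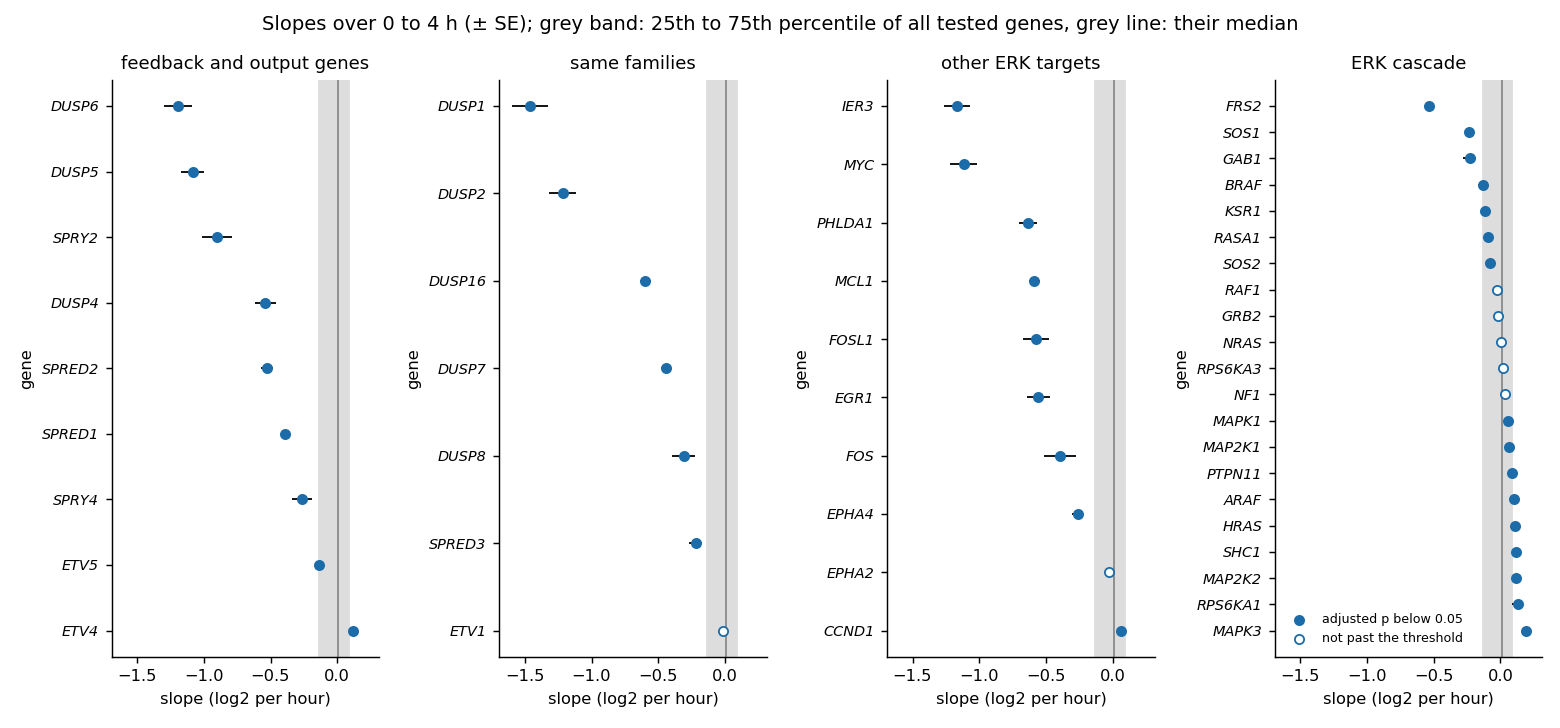
Slope in log2 units per hour (± SE) for each tested gene of the 4 lists, filled where the adjusted p was below 0.05, with the 25th to 75th percentile of all 12032 tested genes as a grey band from -0.13 to 0.09. Feedback and output genes, their relatives and other targets lie mostly left of the band, and cascade genes lie mostly within or near it.

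Set beside the slopes over 0 to 4 h, the pentamer counts did not follow the same order, and a link between them was not tested. DUSP5 and ETV4, both with none, were at opposite ends, with slopes of -1.08 (SE 0.0868) and 0.12 (SE 0.0327). DUSP6 had the steepest slope and 0.495 pentamers per kb, below the median of all genes, while SPRED1 had 4.30 per kb and a slope of -0.39 (SE 0.0239). SPRY2 and SPRY4 had similar densities, 2.56 and 2.12 per kb, with slopes of -0.90 (SE 0.110) and -0.26 (SE 0.0737). With 0, 1 and 2 h only, their slopes were -1.44 and -0.76. Among the relatives and other targets, densities above the median went with steep and with shallow slopes. DUSP1 held 6.01 and IER3 8.14 per kb, with slopes of -1.46 and -1.17. ETV1 and EPHA2, both named after their values were seen, held 4.74 and 3.42 per kb, with slopes of -0.01 and -0.03.

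**Figure D5:**
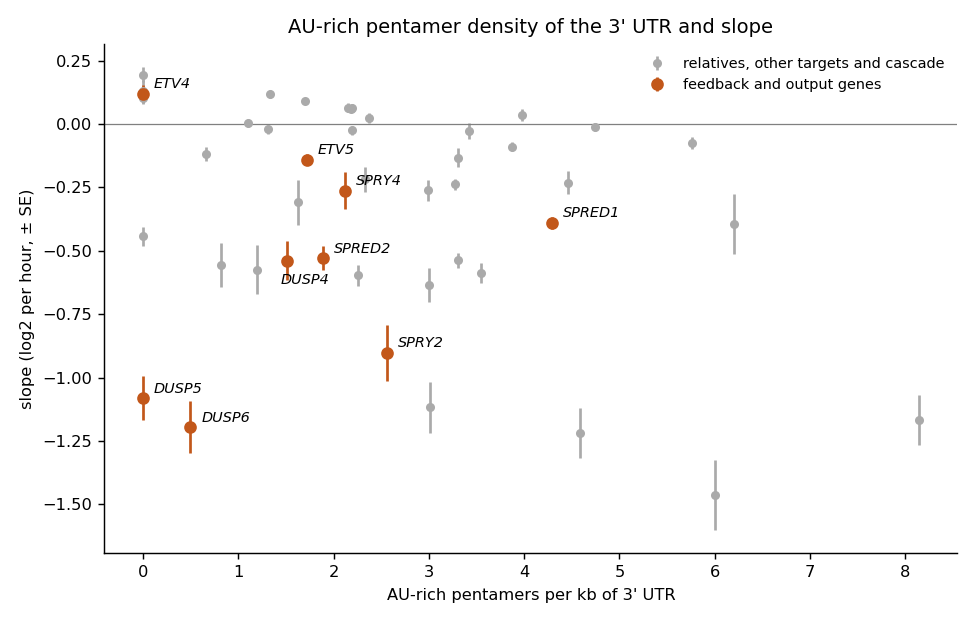
Slope in log2 units per hour (± SE) against the number of AU-rich pentamers per kb of 3′ UTR for the 9 tested feedback and output genes (orange, named) and the tested genes of the other 3 lists (grey). DUSP5 at -1.08 and ETV4 at 0.12 share a density of 0.

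Some genes followed the average of the 9 more closely than others. The correlation of each with the mean of the 9 centered log2 CPM profiles over the 12 libraries, to which it contributes, was 0.918 or more for all except SPRY4 (0.797) and ETV4 (-0.654). Outside the lists, the genes whose profiles were most like that mean were MARS2, the mitochondrial methionyl-tRNA synthetase (r = 0.997), FAM200A (0.993), NFKBIA, an inhibitor of NF-κB (0.993), RNF111, a ubiquitin ligase (0.992), and PLK2, a polo-like kinase (0.991). Their slopes ran from -1.75 for NFKBIA to -0.38 for RNF111. The 12 points share their libraries and time points, so these values are descriptions.

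Shared sequence touches few of these values. Among the canonical transcripts of the 10 genes, 0 words of 50 bases were found in transcripts of another gene except for 1.69% of those of SPRED1, which lie in a repeat, and 2.88% of those of ETV5, which overlaps DGKG by 164 exonic bases on the same strand. DUSP6 overlaps an antisense gene (ENSG00000274021) by 873 exonic bases and ETV4 overlaps DHX8 on the other strand by 54. Whether the counting used strand is not given in the sources used here, so reads of these overlaps cannot be assigned with certainty.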

How the data were processed

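For the 12 libraries, made with a stranded poly(A) kit, the table deposited by the authors holds whole-number raw counts for each gene symbol. FastQC, STAR and hg19 are named in the submitters' processing notes without version or role. The counter, its strand setting and its annotation are not given in the sources used here. All columns matched a sample title (0 unmatched).

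Counts were analyzed with edgeR 4.0.16 in R 4.3.3 (TMM factors, glmQLFit and glmQLFTest, common biological coefficient of variation 0.0905). Genes averaging 10 or more counts over the libraries were kept, p-values were adjusted by Benjamini-Hochberg over all 12032 of them, and calls were made at 0.05. Time was a number (slope), a factor of 4 levels (contrasts) or a cubic polynomial (departure from a line). A half-life is -1 divided by the slope, in hours. The scripts were tested on simulated data. Family ratios used counts plus 0.5. DESeq2 1.42.0, other scalings, filters and time points, a replicate block and each replicate left out were alternatives. Same-numbered libraries deviated together from their time means in every pair (r 0.283 to 0.597 over 18 pairs), so the numbers in the labels were taken as pairing the samples. The main fits, their intervals and the runs with 1 replicate left out did not include this pairing. Only results named as blocked did, so a gene that did not pass without the block can pass with it. Intervals and detection limits, set at 3 counts, cover counting error only where single counts are given. The 3′ UTRs and coordinates come from GENCODE version 44 on GRCh38, a different build from hg19, and were joined by symbol.

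The genes, lists and tests were chosen with earlier results of these data known. Named genes were the 10 genes, up to 3 called genes with the most negative and the most positive slopes per list, list genes below the filter, GAPDH and ACTB, and the 5 genes outside the lists most correlated with the mean profile. A gene of the cascade list is not reported here. EPHA2 and ETV1 were named after their values were seen.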

Additional observations from a re-analysis of the deposited data

How the results depend on the processing

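The 8 falling genes at 4 h against 0 h and by slope kept their direction under every alternative run, with 7 to 9 called, 9 where SPRY1 entered without a count filter and 7 with a mean of at least 100 counts, without replicate 2 or with 3 of the 4 times (slope). The rise of ETV4 by slope was not called with library totals, with GAPDH plus ACTB scaling, without replicate 1 or with 1, 2 and 4 h only (0 genes each, range 0 to 1 over the replicates left out). With GAPDH plus ACTB scaling its slope reversed to -0.020 and its change at 4 h to -0.031, where 0 genes were called higher. In the first hour, 0 to 3 genes were called lower when 1 replicate was omitted, and the replicate block gave 6 lower and 1 higher. For the last interval, 2 to 6 genes were lower, and SPRY4 was called higher (0 to 1) in neither library totals nor GAPDH plus ACTB scaling (0 each). Departure from a line was called in 0 to 2 genes without 1 replicate and in 6 with the replicate block. The 2 contrasts of rates added after seeing the data gave 3 genes with the replicate block, from 0, for the second hour against the first, and 4, from 2, for the last 2 h against the second hour, with 0 to 1 without 1 replicate. The block changed no other call that the text rests on beyond those given with the results. Family pairs numbered 3 to 4 without 1 replicate, and over 0 to 2 h the DUSP5/DUSP6 slope reversed to 0.645. Of 730 values of single genes under an alternative, 670 stayed on their side of the threshold, among them 13 uncalled values that changed sign, 33 lost and 25 gained a call, and 2 called values reversed. The cause of these changes was not tested.

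With 1 slope per gene, 3 replicates and about the same depth in each library, SPRY1 and the late values of DUSP5 and SPRY2 are limited by few counts. Values are relative to the scaling of each library, and no amount per cell can be read from them.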
